A study of Mus musculus with 16 samples.

Results

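The Slc25 mitochondrial carrier family was followed in whole liver through the protein-coding genes whose symbol begins with Slc25a and a number. This rule found 47 of the 25719 genes in the deposited table. Of the 47 members, 42 averaged 10 or more normalized counts across the 16 mice, and the other 5 (Slc25a18, Slc25a31, Slc25a41, Slc25a43 and Slc25a54) stayed below it and entered no test.

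RNA was sequenced from livers of male mice aged 8 to 12 weeks at the start of feeding, with 1 library per mouse. Wild-type C57BL6J mice (WT) and mice lacking Klrk1 in every cell (Klrk1-/-, written KO here) were fed a normal chow diet (NCD) or a steatosis-steatohepatitis diet (SSD), which is rich in animal fat, fructose and cholesterol, for 3 weeks. Klrk1 encodes NKG2D, a receptor of lymphocytes for ligands on stressed cells, and the study asked how its loss alters the liver's response to this diet. The groups were 4 WT mice on NCD, 5 WT mice on SSD, 4 KO mice on NCD and 3 KO mice on SSD. For these 16 mice the sources used here do not say whether KO and WT animals were littermates or shared cages, so that p-values measure the spread between these mice.

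Most Slc25 proteins sit in the inner mitochondrial membrane, which is otherwise closed to most metabolites, and each carries a small set of substrates, usually in exchange for another. In liver they link mitochondria to the cytosolic steps of urea synthesis, gluconeogenesis, fatty acid synthesis and fatty acid oxidation. They supply ADP and phosphate for ATP synthesis, and bring in the iron, glutathione and cofactors that mitochondrial enzymes need.

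Libraries held 19892025 to 28936707 reads on genes. Klrk1 had a normalized count of 20.1 to 28.7 in WT mice on NCD and 33.0 to 71.1 in WT mice on SSD, against 0.966 to 8.71 in the 7 KO mice. The sum of 6 hepatocyte markers, Alb, Apoa1 and Ttr among them, was 2252430 to 2549810 in WT mice on NCD and 1472930 to 1852300 on SSD, and 2152390 to 2839790 in KO mice on NCD and 1945440 to 2107670 on SSD. As a share of all normalized counts the diets overlapped in both genotypes, with 8.64% to 9.38% on NCD and 7.66% to 8.67% on SSD in WT mice and 8.43% to 10.2% and 8.64% to 9.64% in KO mice. Of the 6, 2 were called lower on SSD in WT mice, Cps1 (log2 fold change -1.19) and Tat (-2.05). In KO mice 3 were called lower, Apoa1 (-0.61), Cps1 (-0.60) and Tat (-2.15). Alb, most of the sum, and Apob, which had the higher mean on SSD, were not called in either genotype. None of the 6 was at 0. Of 5 proliferation markers, 5 were called higher on SSD in WT mice (summed level 100 to 139 on NCD and 217 to 1612 on SSD) and 0 of 4 tested in KO mice (123 to 180 and 75.4 to 130). The part of these shifts in the carrier results was not tested. The sum of 6 macrophage markers was 17301 in WT SSD mouse 1 and 12072 in WT SSD mouse 4, beside 6967 to 7908 in the other WT SSD mice and 4351 to 6690 in the other groups. The same WT SSD mouse 1 had the highest sum of 5 stellate cell markers (15566, against 3880 to 7798 in all other mice). In WT mice 3 of 6 macrophage, 2 of 5 stellate cell and 3 of 5 endothelial markers were called higher on SSD. In KO mice 1, 1 and 0 were. The part of these markers in the carrier results was not tested. In bulk liver, fewer cells of a type and less RNA per cell cannot be told apart.

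The normalized counts of the 47 members summed to 89209 ± 3421 (SD, n = 4) in WT mice on NCD and 80762 ± 3463 (n = 5) in WT mice on SSD. The sum was 75941 ± 1312 (n = 4) in KO mice on NCD and 85153 ± 4330 (n = 3) in KO mice on SSD. As a share of all normalized counts, the order of the diets was reversed in WT mice, with 0.341% (0.324% to 0.371%) on NCD and 0.391% (0.384% to 0.407%) on SSD. In KO mice the share was 0.284% (0.276% to 0.297%) on NCD and 0.381% (0.355% to 0.395%) on SSD. Neither the sums nor the shares were tested. Without Slc25a25 the sums of WT mice were 81697 ± 3039 on NCD and 78033 ± 3638 on SSD, with overlapping ranges, and those of KO mice 75099 ± 1580 and 82894 ± 4157. On NCD the genotypes did not overlap without it, with 78389 to 85281 in WT mice and 73326 to 76673 in KO mice.

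Levels were compared between members as normalized counts per kb of the gene length given in the table. Slc25a39, required for the import of glutathione into mitochondria, led with a mean of 10016 per kb over the 16 mice. Next came Slc25a47, a carrier expressed mainly in liver, at 8590 per kb and the ADP/ATP exchanger Slc25a5 at 7985 per kb. At the other end of the tested members stood Slc25a2, a second ornithine carrier, with 174 reads in all 16 libraries. Slc25a31, the ADP/ATP exchanger of the male germ line, had 28 reads in all, Slc25a43 had 25 and Slc25a18, a glutamate carrier best known from brain, had 9. Slc25a41 and Slc25a54 had 0 reads in every library, which allows up to 3 reads per library. Of the ADP/ATP exchangers, Slc25a5 exceeded its relative Slc25a4, the exchanger of heart and muscle, in every mouse.

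**Figure D1:**
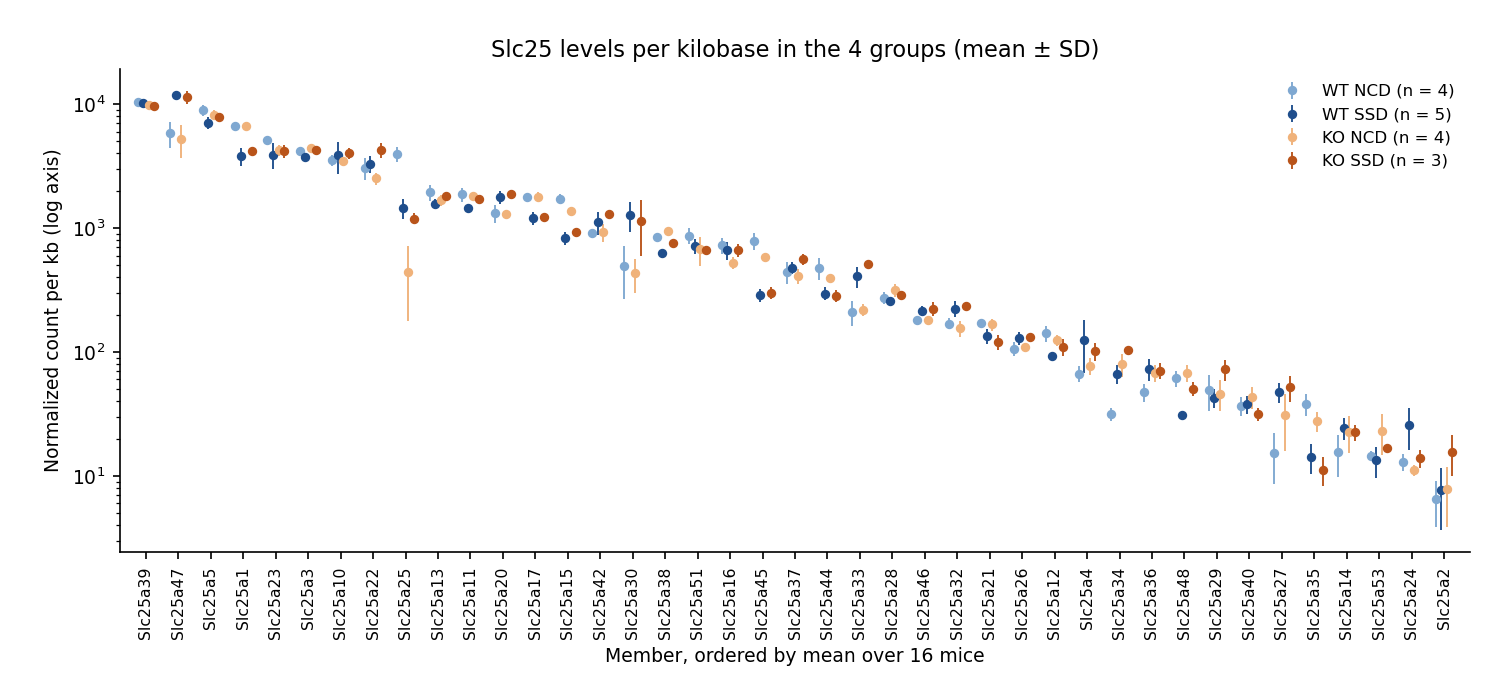
Mean normalized count per kb (log axis) of members that averaged 10 or more normalized counts, in the 4 groups, with SD over mice as bars. Slc25a39 had nearly the same level in all groups, whereas the 4 groups of Slc25a25 were spread over a wide range, with KO mice on NCD lowest.

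Slc25a25 (ENSMUSG00000026819; GRCm39 chr2:32304499-32341457, minus strand) showed the largest difference between the genotypes in the family. It encodes a calcium-regulated carrier that exchanges ATP-Mg for phosphate and so sets the adenine nucleotide pool of the matrix. Its normalized counts were 7612, 7400, 8818 and 6219 in WT mice on NCD and 2660, 2293, 2464, 2655 and 3578 in WT mice on SSD. In KO mice they were 1560, 829, 443 and 538 on NCD and 2298, 2008 and 2471 on SSD. All WT mice on NCD stood above all other mice and all KO mice on NCD below all other mice, while the SSD groups of both genotypes overlapped.

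On the scale of log2(normalized count + 1), Slc25a25 fell on SSD in WT mice by 1.47 (SE 0.13, adjusted p 1.18e-05) and rose on SSD in KO mice by 1.59 (SE 0.32, adjusted p 0.00356; limma with Benjamini-Hochberg adjustment over all genes tested). On NCD it was lower in KO than in WT mice by 3.32 (SE 0.29, adjusted p 5.28e-05), with means of 842 ± 506 and 7512 ± 1064.5. The diet effect differed between the genotypes by 3.06 (SE 0.38, adjusted p 0.00111). It was the only member of 42 tested for this interaction that passed, where 0.849% of all genes passed. All 4 calls of Slc25a25 held under every alternative tried. Between the genotypes on SSD it was not called, with a difference of -0.26 (95% confidence interval -0.56 to 0.04).

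Since gene-level counts do not show which start site was used, the 3 promoter windows of Slc25a25 in RefSeq (GRCm38.p6, minus strand, 250 bases before to 50 after each start) are given, with the window of Slc25a36 that holds the same motif. Capitals mark letters of the cAMP response element TGACGTCA and the E-box CACGTG, searched on both strands.

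Slc25a25, chr2:32424017-32424316: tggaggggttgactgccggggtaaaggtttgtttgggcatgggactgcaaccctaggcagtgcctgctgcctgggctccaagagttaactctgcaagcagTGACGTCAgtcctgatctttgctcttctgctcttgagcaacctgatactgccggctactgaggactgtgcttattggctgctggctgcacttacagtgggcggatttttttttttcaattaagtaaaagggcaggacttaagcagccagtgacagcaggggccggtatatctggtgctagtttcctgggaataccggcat
Slc25a25, chr2:32431102-32431401: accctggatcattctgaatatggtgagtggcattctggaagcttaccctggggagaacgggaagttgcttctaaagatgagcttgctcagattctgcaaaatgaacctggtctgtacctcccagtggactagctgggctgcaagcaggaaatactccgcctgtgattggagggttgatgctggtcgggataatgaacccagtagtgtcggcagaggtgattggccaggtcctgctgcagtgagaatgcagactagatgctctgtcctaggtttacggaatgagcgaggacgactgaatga
Slc25a25, chr2:32451421-32451720: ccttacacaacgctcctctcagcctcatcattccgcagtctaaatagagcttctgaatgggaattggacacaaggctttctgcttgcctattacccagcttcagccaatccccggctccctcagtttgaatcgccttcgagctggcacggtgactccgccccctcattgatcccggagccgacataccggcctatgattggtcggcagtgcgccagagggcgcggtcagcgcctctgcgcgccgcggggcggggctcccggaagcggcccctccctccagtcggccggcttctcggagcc
Slc25a36, chr9:97110992-97111291: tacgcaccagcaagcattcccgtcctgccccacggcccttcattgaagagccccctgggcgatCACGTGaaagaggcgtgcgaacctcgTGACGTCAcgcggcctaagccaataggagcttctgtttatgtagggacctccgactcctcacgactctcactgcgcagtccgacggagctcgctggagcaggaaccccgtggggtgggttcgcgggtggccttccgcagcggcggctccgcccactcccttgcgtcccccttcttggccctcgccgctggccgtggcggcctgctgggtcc

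The first of the Slc25a25 windows held TGACGTCA beginning 150 bases before the start, and the other two held none of the motifs searched. Slc25a36 held TGACGTCA beginning 161 bases and CACGTG beginning 187 bases before its start. Of the 47 members, 36 had a window in the RefSeq table, with 46 windows in all. TGACGTCA was in 2 of these 46 and in 1.79% of the 32851 windows of all genes. CACGTG was in 8 of the 46 and in 7.15% of all windows, in Slc25a1, Slc25a13, Slc25a14, Slc25a15, Slc25a31, Slc25a33 and Slc25a36, with the same site of Slc25a14 counted in a pair of overlapping windows. The sterol response element TCACNCCAC was in 1 member window, that of Slc25a18, and in 1.24% of all windows. GCGCATGC, bound by NRF1, was in 2 member windows, those of Slc25a31 and Slc25a54, and in 2.71% of all windows. The D-box TTATGTAA, the amino acid response element TGATGCAA and the HNF4 letters CAAAGTCCA were in none of the 46 and in 0.938%, 0.895% and 0.475% of all windows. These matches are descriptions of letters and not of binding.

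Because Slc25a25 differed between genotypes on NCD, 12 core clock genes, chosen after their values were seen, were set beside it. On NCD, Npas2 and Nr1d1 were higher and Per2 and Per3 lower in KO mice (4 of 12 called), where 2.92% of all genes were called higher and 2.87% lower. Per2, a repressor of the clock, differed by -1.19 (SE 0.17, adjusted p 0.00117), with 560 to 1009 in WT mice and 323 to 406 in KO mice on NCD. On SSD against NCD, 5 of the 12 were called in WT mice (Npas2 and Per1 higher, Cry2, Per2 and Per3 lower) and 1 in KO mice (Per2, lower by 1.07), in which Slc25a25 rose. Over all genes, 11.9% were called higher and 7.32% lower in WT mice, and 6.54% and 6.6% in KO mice. On SSD, where Slc25a25 was not called between the genotypes, Per1 (-1.24) and Per2 (-0.80) were lower in KO mice. The hour of tissue collection is not given in the sources used here, and its part in the Slc25a25 result was not tested. Exons of Slc25a25 also share 404 bases with Naif1 on the opposite strand, whose mean normalized count was 120, and whether counting used strand is not given in the sources used here.

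**Figure D2:**
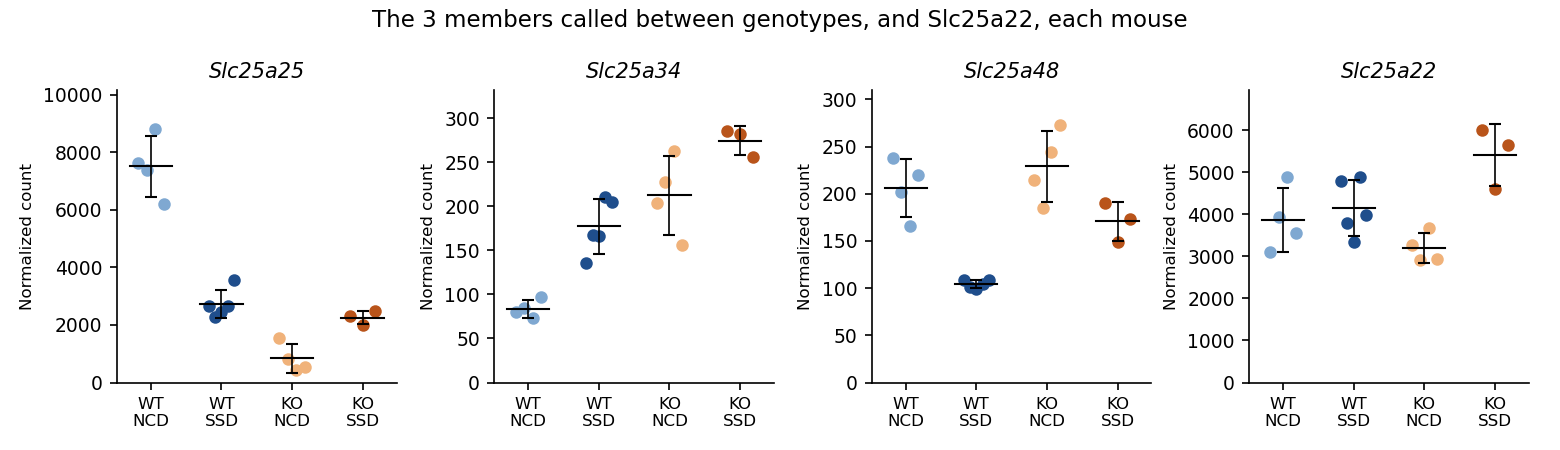
Normalized count of each mouse (points) with group mean and SD (bars) for Slc25a25, Slc25a34, Slc25a48 and Slc25a22, where KO stands for Klrk1-/-. Slc25a25 was highest in WT mice on NCD (6219 to 8818) and lowest in KO mice on NCD (443 to 1560).

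To determine which carriers changed on SSD, the diets were compared within each genotype. Calls required both a fold change above 1.5 and an adjusted p below 0.05. In WT mice 41 members were tested and 16 were called. Of these, 8 were higher on SSD, where 11.9% of all genes were called higher, and 8 were lower, where 7.32% were. A further 9 passed the adjusted p alone, so that 25 members had an adjusted p under 0.05, as had 34.9% of all genes, called genes included. The median log2 fold change was -0.13 over the members tested and -0.0015 over all genes tested. Without WT SSD mouse 1 the count was 14, and without WT SSD mouse 4 it was also 14.

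In KO mice 42 members were tested and 9 were called. There were 6 higher on SSD, with 6.54% of all genes called higher, and 3 lower, with 6.6%. A further 10 passed the adjusted p alone, so that 19 had an adjusted p under 0.05, as had 29.4% of all genes, called genes included. The median log2 fold change was 0.04 over the members and -0.0020 over all genes. With every library scaled to the same total, 15 members were called higher and 2 lower in KO mice, where 16.4% of all genes were called higher and 3.72% lower. In WT mice 14 were then higher and 5 lower, where 26.5% of all genes were higher and 3.12% lower. With the deposited scaling, both genotypes called 7 members, which are 43.8% of the WT list and 77.8% of the KO list. Over all genes tested in both, the shared calls were 44.1% of the WT list and 63.0% of the KO list. The 7 members were Slc25a1, Slc25a35 and Slc25a45, lower in both, Slc25a30, Slc25a33 and Slc25a47, higher in both, and Slc25a25 in opposite directions. The 41 members tested in both had the same sign of change in 35 (85.4%), as had 73.9% of all genes.

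**Figure D3:**
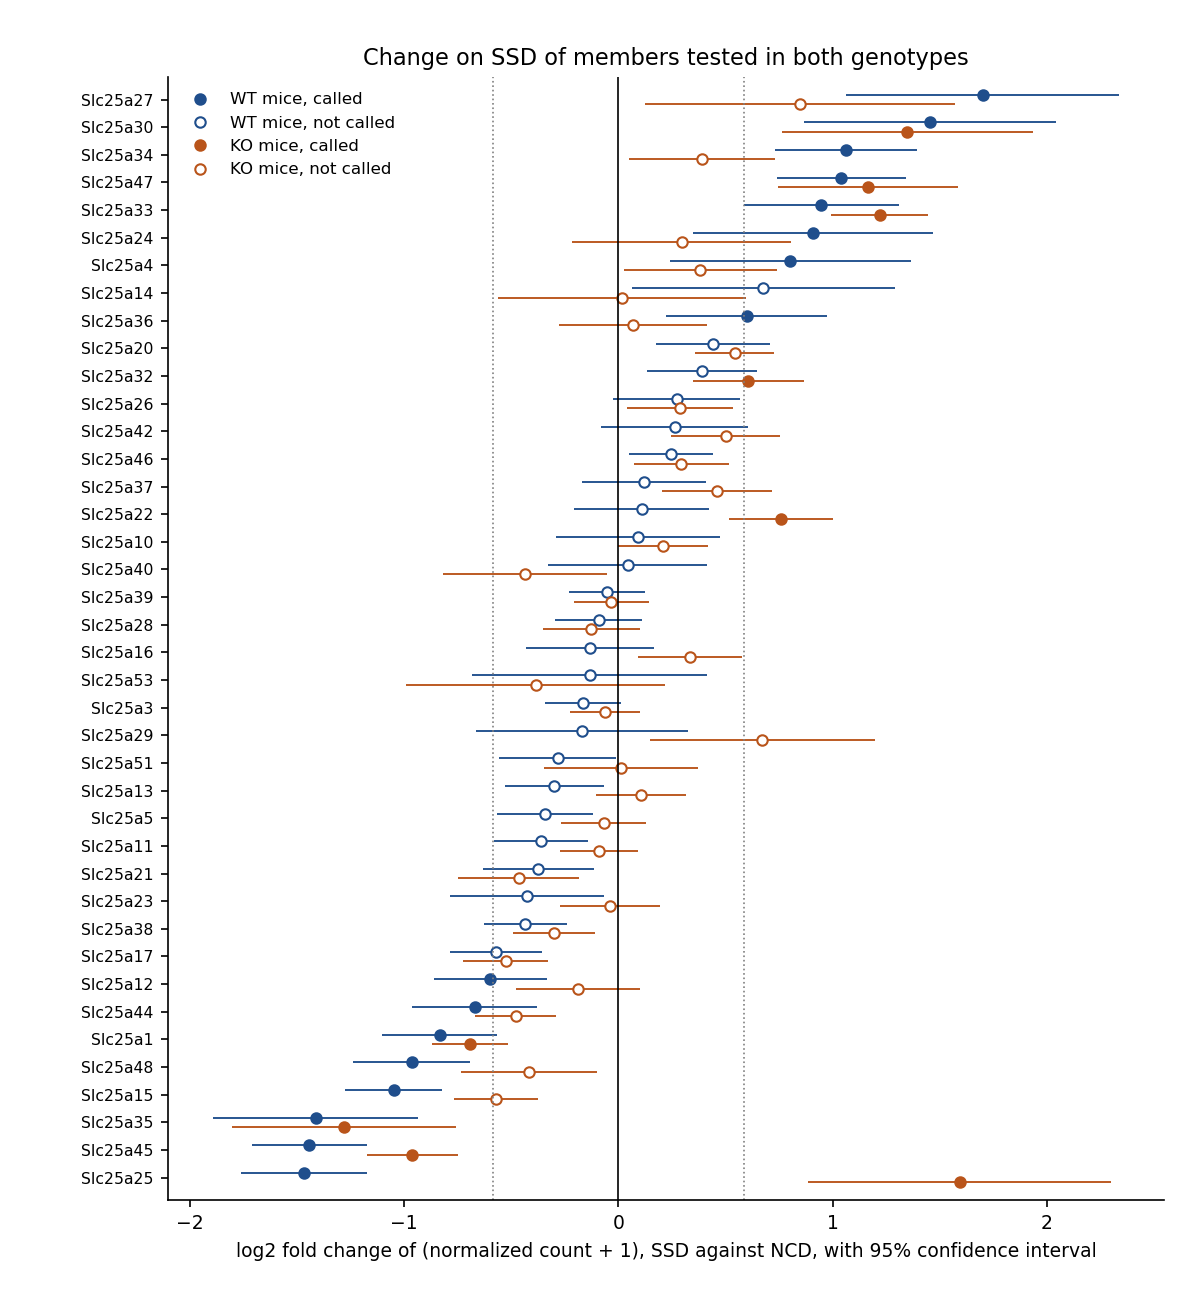
Log2 fold change of normalized count + 1 on SSD against NCD, with 95% confidence intervals, for members tested in WT (blue) and KO (brown) mice. Filled points were called, dotted lines mark a fold change of 1.5, and Slc25a25 is the only member called in both genotypes with opposite signs (-1.47 and 1.59).

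Of the carriers of basic amino acids, Slc25a15 fell on SSD in WT mice. This carrier, which brings ornithine into mitochondria for the urea cycle, had normalized counts of 6579, 7127, 7326 and 5967 in WT mice on NCD and 3886, 3060, 3142, 2860 and 3413 on SSD. The groups did not overlap, and the gene fell by 1.05 on the log2 scale (SE 0.10, adjusted p 2.19e-05, limma). In KO mice it measured 4999 to 5914 on NCD and 3288 to 3824 on SSD, a log2 fold change of -0.57 (SE 0.09, adjusted p 0.000749) that stayed under the fold limit. Of the other basic amino acid carriers, Slc25a29 had 37.8 to 77.5 in WT mice on NCD and did not pass in any comparison, and Slc25a2 was tested in KO mice alone among the diet comparisons and did not pass.

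The urea cycle genes Cps1, Otc, Ass1, Asl and Nags were called lower in WT mice on SSD, and Asl, Ass1 and Cps1 in KO mice. Otc passed the adjusted p alone in KO mice (-0.57, adjusted p 0.000625), just short of the fold limit. Ass1, which joins citrulline and aspartate, stood at 26.8% of its NCD mean in WT mice and 34.1% in KO mice. Cps1, the entry enzyme of the cycle in the matrix, stood at 43.9% in WT mice and 66.1% in KO mice. The diet effect on Nags, which makes the activator of Cps1, differed between the genotypes by 0.62 on the log2 scale (adjusted p 0.0466), and that of Slc25a15 by 0.48 (adjusted p 0.112) did not pass.

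Among the aspartate and glutamate carriers, Slc25a12, an aspartate/glutamate exchanger of the malate-aspartate shuttle, was called lower on SSD in WT mice, with 195 to 274 on NCD and 143 to 172 on SSD (log2 fold change -0.60, adjusted p 0.0031). This lay just past the fold limit and was lost in 5 of 18 alternatives, among them without WT NCD mouse 2 (-0.53), WT NCD mouse 5 (-0.55) or WT SSD mouse 2 (-0.57). With every library scaled to the same total it was -0.25 (adjusted p 0.139). Slc25a13, the liver's main exchanger of this kind, passed the adjusted p alone in WT mice (-0.30, adjusted p 0.0473). Slc25a11, the oxoglutarate/malate carrier of the shuttle, did so too (-0.36, adjusted p 0.0173). Of the 4 shuttle enzymes, Got1 and Mdh1 were called lower in WT mice and Got1 in KO mice, where Mdh1 passed the adjusted p alone (-0.34).

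Slc25a22, a glutamate carrier, was called in KO mice and not in WT mice. Its normalized counts were 3266, 2912, 3667 and 2941 in KO mice on NCD and 6017, 4593 and 5648 on SSD. These groups did not overlap, and the gene rose by 0.76 on the log2 scale (SE 0.11, adjusted p 0.000457). In WT mice it had 3096 to 4876 on NCD and 3342 to 4880 on SSD, with a difference of 0.11 (95% confidence interval -0.21 to 0.42). The interaction of 0.65 had an adjusted p of 0.128, so a difference between the genotypes was not shown.

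Among carriers of di- and tricarboxylates, Slc25a1 was lower on SSD in both genotypes. It exports citrate, the source of cytosolic acetyl-CoA for fatty acid and sterol synthesis. Its normalized counts were 5569, 5489, 5518 and 5901 in WT mice on NCD and 2314, 3652, 3440, 3476 and 3075 on SSD. In KO mice they were 5226, 6055, 5867 and 5508 on NCD and 3315, 3678 and 3525 on SSD. The diets did not overlap in either genotype, and the gene fell by 0.83 in WT mice (SE 0.12, adjusted p 0.000392) and by 0.69 in KO mice (SE 0.08, adjusted p 8.75e-05). With every library scaled to the same total these changes were -0.49 and -0.43, under the fold limit.

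Of 5 genes that use citrate in the cytosol, Acly, which cleaves it, and Fasn, the fatty acid synthase, were called lower on SSD in both genotypes. Acly stood at 27.2% of its NCD mean in WT mice and 26.7% in KO mice, and Fasn at 27.3% and 27.9%. Acaca, Aco1 and Me1 were not called in either genotype. The other carriers of this class, Slc25a10 for malate and succinate and Slc25a21 for oxoadipate, were not called, though Slc25a21 passed the adjusted p alone in WT mice (-0.37) and KO mice (-0.47).

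Slc25a20, the acylcarnitine carrier of fatty acid oxidation, passed the adjusted p in both genotypes without reaching the fold limit. It had 1947 to 2845 in WT mice on NCD and 2633 to 3723 on SSD, and its log2 fold change was 0.44 (SE 0.12, adjusted p 0.0153). In KO mice the change was 0.54 (SE 0.09, adjusted p 0.000711), and the diets did not overlap. Of 4 enzymes that work beside it, Cpt1a, Cpt1b and Crat were called higher in WT mice, and Cpt1a, Cpt2 and Crat in KO mice. Cpt2 in WT mice (0.08) and Cpt1b in KO mice (0.28) were not called. Crat, the carnitine acetyltransferase, reached 2.84 times its NCD mean in WT mice and 2.85 times in KO mice.

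Both pyrimidine nucleotide carriers rose on SSD in WT mice. Slc25a33 had normalized counts of 534, 352, 334 and 374 in WT mice on NCD and 753, 711, 561, 878 and 939 on SSD. KO mice had 441, 355, 395 and 460 on NCD and 1015, 936 and 925 on SSD. The diets did not overlap in either genotype, and it rose by 0.95 in WT mice (SE 0.17, adjusted p 0.00128) and by 1.22 in KO mice (SE 0.10, adjusted p 7.04e-06). Its relative Slc25a36 rose in WT mice by 0.60 (adjusted p 0.019), from 78.4 to 111 on NCD to 112 to 175 on SSD, and lost the call in 6 of 18 alternatives, also without WT SSD mouse 1 or 4. In KO mice Slc25a36 had a change of 0.07 (adjusted p 0.774).

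Of the carriers that resemble uncoupling proteins, Slc25a30 and Slc25a27 rose in WT mice. Slc25a30 had normalized counts of 608, 299, 375 and 831 in WT mice on NCD and 1176, 1041, 1481, 1213 and 1971 on SSD. KO mice had 376, 676, 368 and 440 on NCD and 817, 1902 and 976 on SSD. Both pairs of groups stood apart although mice of a group differed widely, and the rise was 1.46 in WT mice (SE 0.27, adjusted p 0.00178) and 1.35 in KO mice (SE 0.27, adjusted p 0.00315). Slc25a27 had 14.5, 27.2, 45.6 and 40.8 in WT mice on NCD and 93.7, 82.0, 86.6, 128 and 105 on SSD. It rose by 1.70 in WT mice (SE 0.29, adjusted p 0.00109), the largest rise of the family in WT mice. In KO mice, Slc25a27 had 86.2, 41.1, 95.8 and 34.4 on NCD and 86.9, 137 and 100 on SSD, so that the diets overlapped and no call was made (adjusted p 0.0742). Slc25a14 was not called. Ucp2, an uncoupling protein of the family that carries another symbol, was called higher in both genotypes, at 2.64 times its NCD mean in WT mice and 1.56 times in KO mice.

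**Figure D4:**
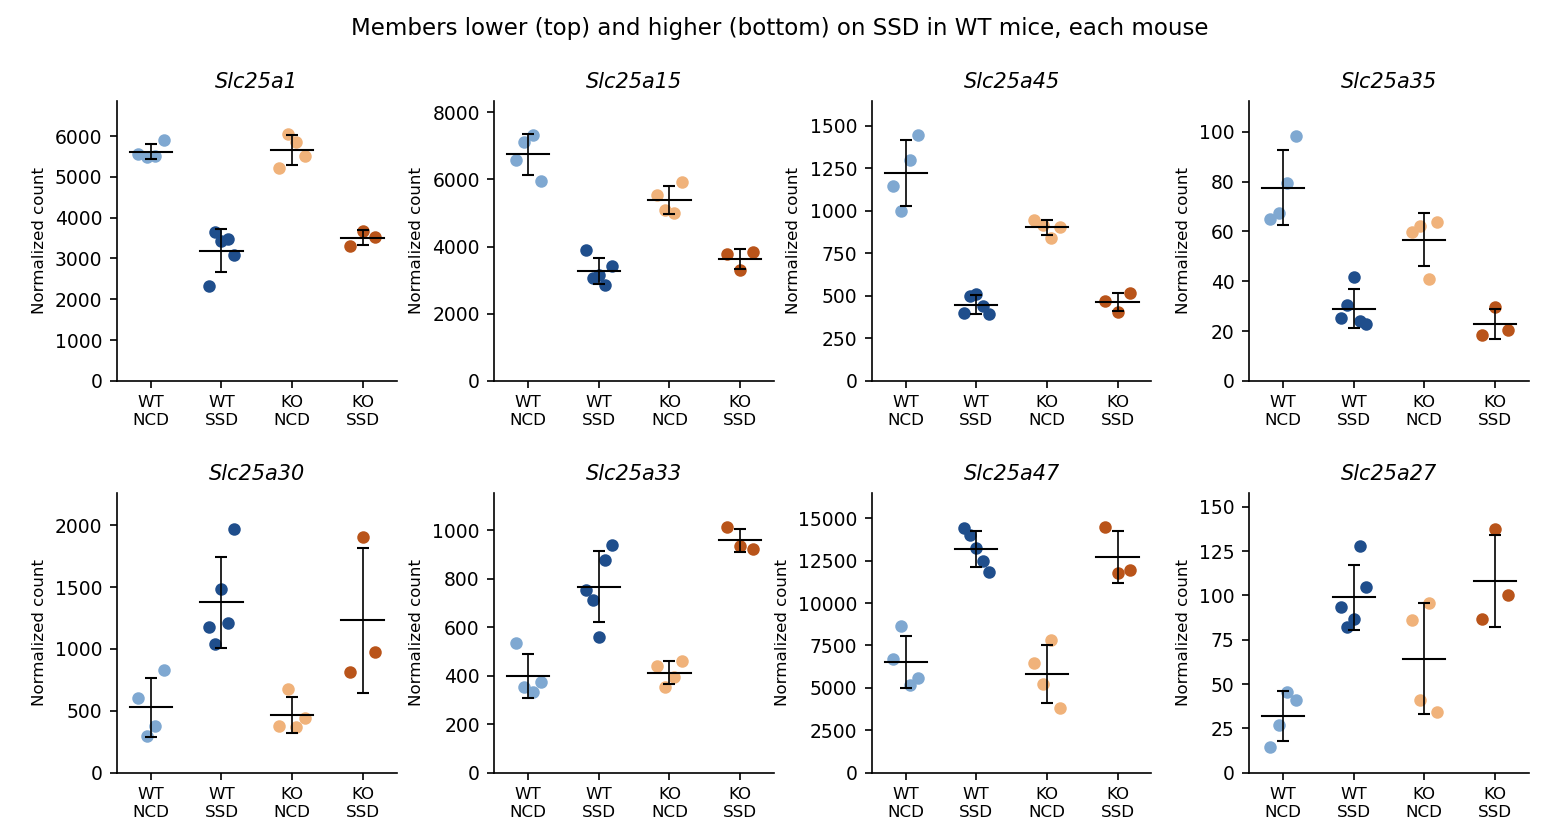
Normalized count of each mouse (points) with group mean and SD (bars) for 4 members lower on SSD in WT mice (top) and 4 higher (bottom), where KO stands for Klrk1-/-. The diets do not overlap in either genotype except for Slc25a27 in KO mice (34.4 to 95.8 on NCD and 86.9 to 137 on SSD).

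Members without a settled substrate held both directions. Slc25a47 had normalized counts of 6729, 8617, 5197 and 5569 in WT mice on NCD and 14422, 14022, 13266, 12478 and 11855 on SSD. KO mice had 6456, 5210, 7840 and 3841 on NCD and 14461, 11764 and 11922 on SSD. Every mouse on SSD exceeded every mouse on NCD, and the gene rose by 1.04 in WT mice (SE 0.14, adjusted p 0.000198) and by 1.17 in KO mice (SE 0.19, adjusted p 0.000995). On SSD it was the most abundant member per kb, with 11814 in WT mice and 11374 in KO mice. Slc25a47 (GRCm39 chr12:108801972-108822741, plus strand) lies 163 bases from Slc25a29 in the table's coordinates, with Slc25a29 on the opposite strand, and in the GENCODE annotation used here their exons share 230 bases. Slc25a29, at 54.4 normalized counts on average, was not called in any comparison.

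Slc25a45 had 1142, 997, 1300 and 1443 in WT mice on NCD and 399, 500, 507, 438 and 392 on SSD. KO mice had 944, 916, 842 and 905 on NCD and 471, 407 and 515 on SSD. Every SSD value was below every NCD value, and the gene fell by 1.44 in WT mice (SE 0.12, adjusted p 6.71e-06) and by 0.96 in KO mice (SE 0.10, adjusted p 2.75e-05). Slc25a35 was low, with 65.1, 67.5, 79.5 and 98.2 in WT mice on NCD and 25.2, 30.4, 41.9, 24.0 and 22.9 on SSD. In KO mice it had 59.7, 62.2, 41.0 and 64.0 on NCD and 18.3, 29.7 and 20.6 on SSD. It fell by 1.41 in WT mice (SE 0.22, adjusted p 0.000592) and by 1.28 in KO mice (SE 0.24, adjusted p 0.00215). Exons of Slc25a35 share 1219 bases with Rangrf on the opposite strand, whose mean normalized count was 34.7.

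Slc25a48, linked to choline uptake by mitochondria, had 238, 202, 166 and 220 in WT mice on NCD and 108, 101, 99.0, 105 and 109 on SSD. It fell by 0.96 in WT mice (SE 0.12, adjusted p 0.000158). In KO mice it had 215, 185, 244 and 273 on NCD and 190, 149 and 173 on SSD, which overlapped (change -0.42, adjusted p 0.0507). Slc25a34 had 79.6, 84.6, 73.0 and 97.1 in WT mice on NCD and 136, 167, 167, 211 and 205 on SSD, and rose by 1.06 (SE 0.15, adjusted p 0.000318). In KO mice Slc25a34 had 203, 228, 262 and 156 on NCD and 286, 282 and 255 on SSD, and was not called (change 0.39, adjusted p 0.0802). The tests of the difference between genotypes had an adjusted p of 0.167 for Slc25a48 and 0.153 for Slc25a34.

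Slc25a24, a relative of Slc25a25 with the same ATP-Mg and phosphate substrates, had 20.5, 27.2, 30.0 and 28.7 in WT mice on NCD and 85.0, 46.5, 54.2, 43.5 and 34.3 on SSD. It rose by 0.91 in WT mice (SE 0.26, adjusted p 0.0176), and WT SSD mouse 1, with the highest macrophage marker sum, was the highest. Slc25a4 likewise had 351 in WT SSD mouse 1 and 113 to 195 in the other WT mice on SSD, against 85.6 to 124 on NCD. Its call in WT mice (0.80, adjusted p 0.0309) was lost without WT SSD mouse 1, at 0.57, and in 5 other alternatives, including those without WT NCD mouse 1, 2 or 3 or WT SSD mouse 4. The call of Slc25a24 was lost without WT NCD mouse 1 (0.79, adjusted p 0.0535). It was also lost with the replicate number as a block, which left out WT SSD mouse 4 (0.96, adjusted p 0.0631). The part of other cell types in these changes was not tested. In KO mice neither was called, with changes of 0.30 for Slc25a24 and 0.38 for Slc25a4. Slc25a23, another relative, and the phosphate carrier Slc25a3 were not called in either genotype, and the relative Slc25a41 had no reads. Slc25a5, the more abundant ADP/ATP exchanger, passed the adjusted p alone in WT mice, where it was lower on SSD (-0.34, adjusted p 0.0227). In KO mice Slc25a5 did not pass (-0.07, adjusted p 0.614).

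Among cofactor carriers, Slc25a32, which carries folate and flavin into mitochondria, had 402, 307, 412 and 331 in KO mice on NCD and 570, 508 and 573 on SSD. It rose by 0.61 in KO mice (SE 0.12, adjusted p 0.00281), just past the fold limit, and lost the call in 5 of 16 alternatives, 4 of them without 1 KO mouse (NCD mouse 2 or 4, SSD mouse 1 or 3). In WT mice it had 348 to 436 on NCD and 460 to 652 on SSD (change 0.39, adjusted p 0.0229). Of 5 mitochondrial folate enzymes, Mthfd2, Mthfd1l and Aldh1l2 were called higher in both genotypes. Aldh1l2 was very low on NCD, with a mean of 4.52 ± 2.88 in WT mice and 4.80 ± 3.45 in KO mice. On SSD its mean was 89.0 ± 25.8 in WT mice and 65.1 ± 16.2 in KO mice. The ratios of these means, 19.7 in WT mice and 13.6 in KO mice, are imprecise because the NCD counts were so low. Slc25a17, a peroxisomal carrier of coenzyme A and NAD, passed the adjusted p in both genotypes at -0.57 and -0.53, just short of the fold limit. The coenzyme A carriers Slc25a16 (0.33) and Slc25a42 (0.50) passed the adjusted p alone in KO mice, and neither was called in the interaction test. Slc25a26 for S-adenosylmethionine and Slc25a51 for NAD did not pass in either genotype, and none of the 7 genes of coenzyme A synthesis was called. Of these 7, Coasy (0.46), Ppcs (0.41) and Ppcdc (-0.45) passed the adjusted p alone in KO mice and Pank3 (-0.37) in WT mice.

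Slc25a44, a carrier of branched-chain amino acids, had 1269 to 2037 in WT mice on NCD and 879 to 1219 on SSD. It fell by 0.67 in WT mice (SE 0.13, adjusted p 0.0028), a call lost without WT NCD mouse 2 and under scaling to equal totals. In KO mice it passed the adjusted p alone (-0.48). So did Slc25a38, the glycine carrier of haem synthesis, in both genotypes (-0.43 and -0.30). The iron carriers Slc25a37 and Slc25a28 and the glutathione carriers Slc25a39 and Slc25a40 were not called in either genotype, though Slc25a37 passed the adjusted p alone in KO mice (0.46). Slc25a39 had a change of -0.05 (95% confidence interval -0.23 to 0.13) in WT mice and -0.03 (-0.21 to 0.14) in KO mice. In contrast, Gclc and Gss of glutathione synthesis were called higher in WT mice, and Gclc, Gclm and Gss in KO mice. Gclm passed the adjusted p alone in WT mice (0.50). None of the 7 haem and iron-sulfur genes was called in either diet comparison, though Fech passed the adjusted p alone in KO mice (0.36). The mitochondrial pyruvate carrier gene Mpc1 was called higher in KO mice (0.59) and passed the adjusted p alone in WT mice (0.40). None of 7 genes of carrier import into the inner membrane was called. Of these, Timm10 (-0.57), Timm10b (-0.39) and Tomm70a (-0.32) passed the adjusted p alone in WT mice. In KO mice Timm22 (-0.52), Timm10b (-0.32) and Timm29 (0.45) did so. Slc25a46, an outer membrane member, passed the adjusted p alone in KO mice (0.29), and Slc25a53 did not pass.

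**Figure D5:**
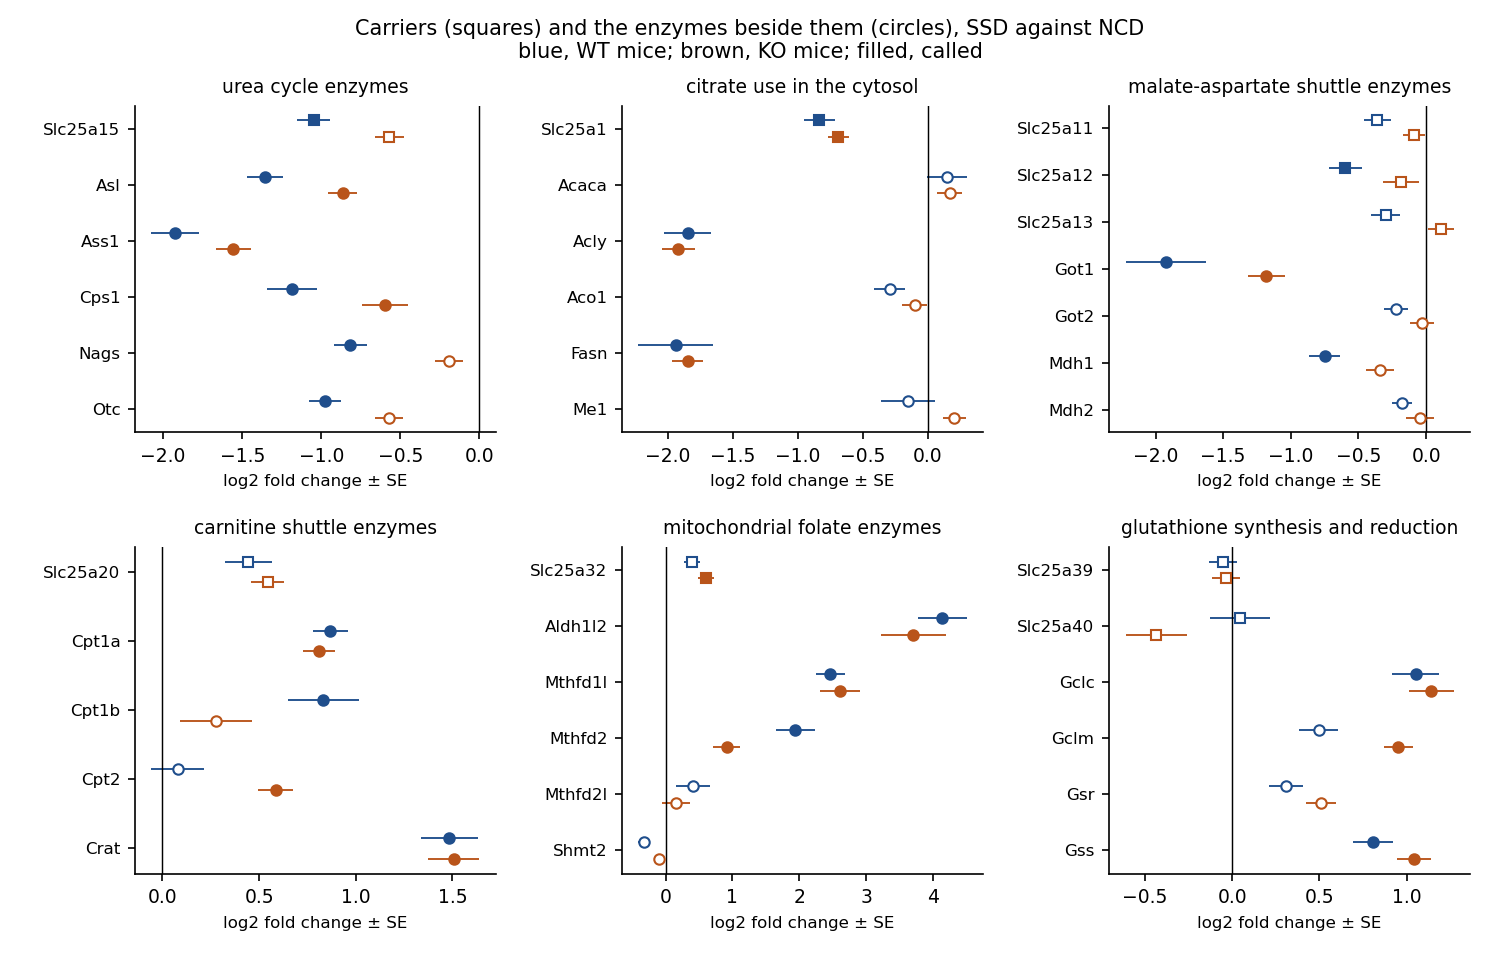
Log2 fold change ± SE on SSD against NCD of carriers (squares) and of enzymes that work beside them (circles), in WT (blue) and KO (brown) mice, with filled symbols for called genes. Slc25a15 in WT mice and Slc25a1 in both genotypes were called lower, as were the urea cycle genes shown in WT mice and Acly and Fasn in both, while Slc25a39 stayed near 0 where Gclc and Gss were higher.

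Finally, the genotypes were compared on each diet. On SSD, 2 of 42 members were called, both higher in KO mice, where 0.709% of all genes were called higher and 1.42% lower, and 2.9% had an adjusted p under 0.05, called genes included. Slc25a48 was higher by 0.70 (SE 0.12, adjusted p 0.0188), with 149 to 190 in KO mice above 99.0 to 109 in WT mice. Slc25a34 was higher by 0.64 (SE 0.15, adjusted p 0.0476), with 255 to 286 in KO mice above 136 to 211 in WT mice. The call of Slc25a34 was lost in 10 of 17 alternatives and that of Slc25a48 in 3, both without KO SSD mouse 1 or KO SSD mouse 3.

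On NCD, 2 of 41 members were called. Slc25a25 was lower in KO mice, where 2.87% of all genes were called lower, and Slc25a34 was higher, where 2.92% were. The log2 difference of Slc25a34 was 1.32 (SE 0.16, adjusted p 0.000659), from 83.6 ± 10.2 in WT to 212 ± 44.6 in KO mice, without overlap and under every alternative tried. Slc25a34 was thus higher in KO mice on both diets. Slc25a15 (-0.32), Slc25a16 (-0.46) and Slc25a45 (-0.42) passed the adjusted p alone, so that 5 members had an adjusted p under 0.05, as had 13.1% of all genes, called genes included. Alas1, the first enzyme of haem synthesis, was the single partner gene called on NCD, lower in KO mice by 1.54 (adjusted p 0.0138).

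By position, the 47 members lay on 19 chromosomes, 4 of them on X. Among 4 pairs that lie within 100000 bases of each other, Slc25a47 and Slc25a29 differed as given above. In the others the abundant Slc25a5, Slc25a23 and the low Slc25a24 lay beside Slc25a43, Slc25a41 and Slc25a54, which had 25, 0 and 0 reads. In the annotation, 26 of the 47 members share exon bases with another gene, and 12 with one in the table.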

How the data were processed

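RNA of whole liver from 16 mice was sequenced as single-end reads on 1 library per mouse. The labels name an mRNA library kit and the study's methods a total RNA kit, so whether poly(A) selection was used is not settled. Per the submitters' processing notes and the study's methods, the authors used FastQC, STAR on GRCm39, FeatureCounts and DESeq2. The strand setting of counting is not given in the sources used here. The deposited table holds a normalized count signal per gene and mouse, which the authors made by dividing read counts by 1 factor per library, a GC fraction and a gene length deposited by the authors, and the authors' own comparisons, which were not used. Columns of per-sample values that matched no sample numbered 0.

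Whole reads were recovered from the steps of each column (100% of values within 0.1 of a whole number) and gave 19892025 to 28936707 reads per library. Mice of a group differed beyond sampling noise (chi-square per gene 14.24 to 100.8 over 25 pairs). The main test was limma 3.58.1 in R 4.3.3, with an intensity trend, on log2(normalized count + 1), in the groups compared only (all 4 for the interaction of diet and genotype), over genes with a mean of at least 10. The Benjamini-Hochberg adjustment of p-values ran over all genes tested. Calls needed an adjusted p under 0.05 and a fold change over 1.5. A fold change on this scale understates that of low genes. The scripts were tested on simulated data. edgeR 4.0.16 and DESeq2 1.42.0 on the recovered reads, other scalings, pseudocounts, minimum means and fold limits, a replicate block and leaving out each mouse were alternatives. The block fit kept only mice whose number occurred in every group compared.

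Some items are not reported here by name, though the counts of members hold them. Values of each mouse are given for the 12 called members with the largest change in each comparison and for members a role turns on, and partner genes are counted per list and named where called. The members and lists were chosen with earlier results of these data known, and the clock genes and motifs after values were seen. Promoter windows are RefSeq's on GRCm38.p6 and were matched by symbol only. Coordinates of genes are those of the table, on GRCm39, and shared exon bases come from a GENCODE annotation of GRCm39.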

Additional observations from a re-analysis of the deposited data

Results flagged for a closer look

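Slc25a25 in WT SSD mouse 5 had a normalized count of 3578, apart from the other mice of its group at 2293 to 2660. It was the 1 outlying value in 57 groups of values looked at by Dixon's criterion, which chance alone meets in about 5% of groups. The change of Slc25a25 on SSD was larger in KO than in WT mice by 3.06 on the log2 scale, rising in KO mice and falling in WT mice, in the interaction test of limma (adjusted p 0.00111). It was higher on SSD in 3 of 3 KO mice than in all 4 KO mice on NCD, and lower in 5 of 5 WT mice than in all 4 WT mice on NCD.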

How the results depend on the processing

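Of 30 gene results, 20 kept their call under every alternative, none reversed direction, and 41 of 522 values lost the call. Without a fold limit 25 members were called in WT mice on SSD against NCD, 19 in KO mice and 5 between genotypes on NCD. With a fold limit of 2 the counts were 8 in WT mice, 5 in KO mice and, between genotypes on SSD, 0. At that limit, and for the counts below, the share of all genes was not computed, except in the diet comparisons scaled to equal totals. With every library scaled to the same total, which moved the median over all genes, on the log2 scale, to 0.34 in WT and 0.25 in KO mice, 14 members were higher and 5 lower in WT mice and 15 higher and 2 lower in KO mice (17 in all), against 8 and 8, and 6 and 3. Between genotypes on SSD this scaling called 0, a pseudocount of 10 called 1, no minimum mean called 1 and edgeR called 1. The cause of these differences was not tested. Leaving out 1 mouse gave 12 to 17 calls in WT mice, 9 to 13 in KO mice, 0 to 2 between genotypes on SSD (0 without KO SSD mouse 1 or 3), 2 to 3 on NCD and 1 for the interaction. Replicate numbers belong to different mice. With the number as a block, only mice whose number occurred in every group compared were kept. The counts were then 13, 9, 3, 4 and 1, with 4 for the genotypes on NCD against 2 in the main fit. The block and the smaller groups cannot be told apart in these counts. The depth limits Slc25a18, Slc25a31, Slc25a41, Slc25a43 and Slc25a54, which could not be compared.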
